A study of Drosophila melanogaster with 24 samples.

Results

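The change in gene expression that female and male *tau*-KO brains had in common at 4 h after a traumatic brain injury (TBI) was measured in 12 of the 24 libraries of the series: 6 at 4 h post-TBI (3 female, 3 male) and 6 from uninjured controls (3 female, 3 male). The members were chosen by their labels alone, and the sexes were pooled with sex as a block, so that each fold change is the part of the 4 h response estimated jointly over both sexes. All flies, the controls included, carried the *tau* deletion (*tau*-KO), were mated adults 10 to 14 days old and differ in their labels by sex and injury. Injured flies took 1 strike of full-body trauma in a spring-driven high impact trauma (HIT) device with its arm held to 45°, so that the whole animal and not the head alone was hit. Each library was made with the QuantSeq 3′ kit from 15 ng of total RNA of 1 dissected brain, and a lane of 50 bp reads was shared. The *tau*-KO line is a stock with its own genetic background, and no fly with intact *tau* enters the comparison, so what follows says nothing of the part *tau* plays. Libraries are named by group and replicate, as male control 2, and the replicate brains differ as single animals do.

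Closed-head trauma in the fly is known to set off innate immune signalling through the Toll and Imd pathways, whose targets are antimicrobial peptides and short immune-induced peptides made largely by the fat body, and by glia in the brain. Tau binds microtubules in axons. Fly brains also signal through neuropeptides, short secreted peptides cut from precursors and stored in small sets of neurons, so that a whole-brain transcript level of such a gene comes from few cells. In RNA from a whole brain, fewer cells of a type and less RNA in each cell cannot be told apart.

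Reads counted in genes ran from 158790 to 1257561 in the 4 h libraries and from 117416 (male control 1) to 1407485 (male control 2) in controls, so that 1 read was worth 0.761 to 7.09 CPM, the unit in which levels are given (reads of a gene scaled to a common library size). Library sizes were scaled by TMM, edgeR's normalization. Reads of *tau* were counted at 133, 53.0 and 185 CPM in females and 181, 176 and 138 CPM in males at 4 h, against 181, 114 and 168 CPM in control females and 142, 121 and 88.8 CPM in control males. These ranges overlapped (log2 FC 0.08 ± 0.31, SE, not called), and since tags from the 3′ end were counted, they do not check the knockout. All 18 neuron markers and 18 of 19 glia markers had counts (all but *gcm*). Markers of tissues that adjoin the brain varied from library to library. The summed level of 25 antenna and olfactory genes was 562 to 1212 CPM at 4 h, against 567 to 8358 CPM in controls, with 8358 CPM in female control 2, while *Obp59a*, *Obp84a*, *Or22a* and *Or47a* had no count in any library. That of 4 genes of the corpora cardiaca and allata, the endocrine glands behind the brain, was 237 to 771 CPM at 4 h, against 229 to 6339 CPM in controls, the highest in male control 2 (at most 934 CPM in the controls other than the second of each sex). Muscle markers (22 genes) summed to 4351 to 5300 CPM at 4 h, against 807 to 4966 CPM in controls, the lowest in male control 2, and gut markers (38 genes) to 731 to 2187 CPM at 4 h, against 47.2 to 1632 CPM in controls, again the lowest in male control 2. Male control 2 correlated at 0.700 with the mean of the other 11 libraries across genes, against 0.862 to 0.953 for the rest. In female 4 h 2 the gene *MRE16* took 32.2% of the reads counted, against 2.02 to 25.4% in the other 11 libraries. For the called genes described below, the value without the second control of each sex is given where it ended the call.

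**Figure D1:**
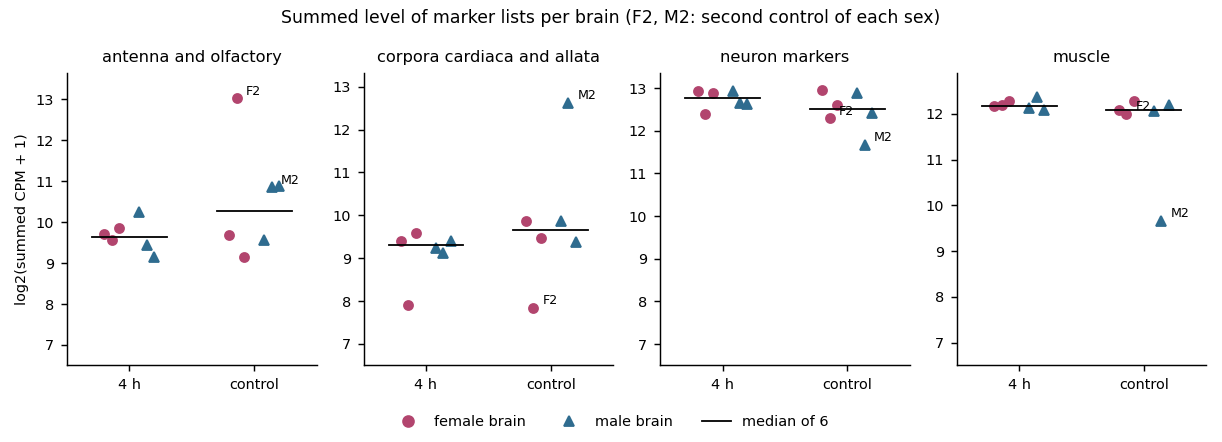
Summed CPM (log2 axis) of the antenna, corpora cardiaca and allata, neuron and muscle marker lists in each of the 12 libraries, 4 h left of control, females as circles and males as triangles, with the second control of each sex labelled F2 and M2. Antenna genes reached 8358 CPM in female control 2 and corpora genes 6339 CPM in male control 2, where muscle genes were at 807 CPM.

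At 4 h post-TBI, 106 of 7088 tested genes (1.5%) were called, 28 higher (0.395%) and 78 lower (1.1%) than in controls, and no gene reached an adjusted p under 0.05. A gene was tested when it had at least 5 counts in at least 3 of the 12 libraries, and called at an unadjusted p under 0.05 with an absolute log2 fold change (log2 FC, 4 h over control) above 1, in edgeR's quasi-likelihood test with sex as a term. In that test 149 genes (2.1%) had an unadjusted p under 0.05, 49 of them higher and 100 lower. With no effect at all, evenly spread p-values would put a share of 0.05 of the tested genes there. That is more than the 2.1% seen, so the number of calls alone is no sign of a response. The lowest adjusted p was 0.997. The adjusted p of each gene named below was likewise 0.997 (edgeR, Benjamini-Hochberg), so that each call rests on its unadjusted p. Of the calls, 9 higher and 37 lower genes had an absolute log2 FC above 2. Many came from rare transcripts: 12 of the 28 higher and 45 of the 78 lower genes had a median below 20 CPM in both conditions. Genes near 0 in either condition passed the filter through the other condition alone, so that the filter favours their call. Among them were *AstCC*, *Cpr50Cb*, *Rx*, *CR43480*, *Klc* and *CG6834*.

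Most of the lower genes had their highest level in 1 of 2 control brains. Of the 78, 66 (84.6%) had their highest level in female control 2 (15 genes) or male control 2 (51 genes), as did 2062 (50.8%) of the 4061 tested genes whose highest level lay in any control. Without these libraries 46 genes were called, 34 higher and 12 lower, 14 of them among the 106. Of the 28 higher genes all were tested in that fit, all kept their sign and 10 were called (*AstCC*, *CG4496*, *Cpr50Cb*, *Tk*, *CG43679*, *CG6422*, *CG8273*, *CG9297*, *nero* and *tn*), and their median log2 FC was 1.25, against 1.48 with all libraries. Of the 78 lower genes 48 were tested, all 48 kept their sign and 4 were called (*CG11147*, *CG6227*, *CG13116* and *CG4291*), with a median of −0.75, against −1.52 for those 48 with all libraries. The other lower genes fell below the count filter without these controls. As the genes were called on the same libraries, the choice itself favours keeping the sign. Pairing 4 h and control brains of the same replicate number within each sex gave 98 calls, 48 higher and 50 lower, of which 61 (20 higher, 41 lower) were among the 106. *CG9297* was not called there (log2 FC 1.77). With 1 library left out, *CG9297* was called in 3 of 12 fits, *nero* and *CG4291* in 5 each and *CG13116* in 7. With a number as block over both sexes there were 123 calls, 63 higher and 60 lower, so the excess of lower calls (73.6%) did not hold under either block. Leaving out male control 2 alone gave 44 calls, 20 higher and 24 lower, female control 2 alone 62 (29 and 33), and female 4 h 2 alone 230 (28 and 202).

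**Figure D2:**
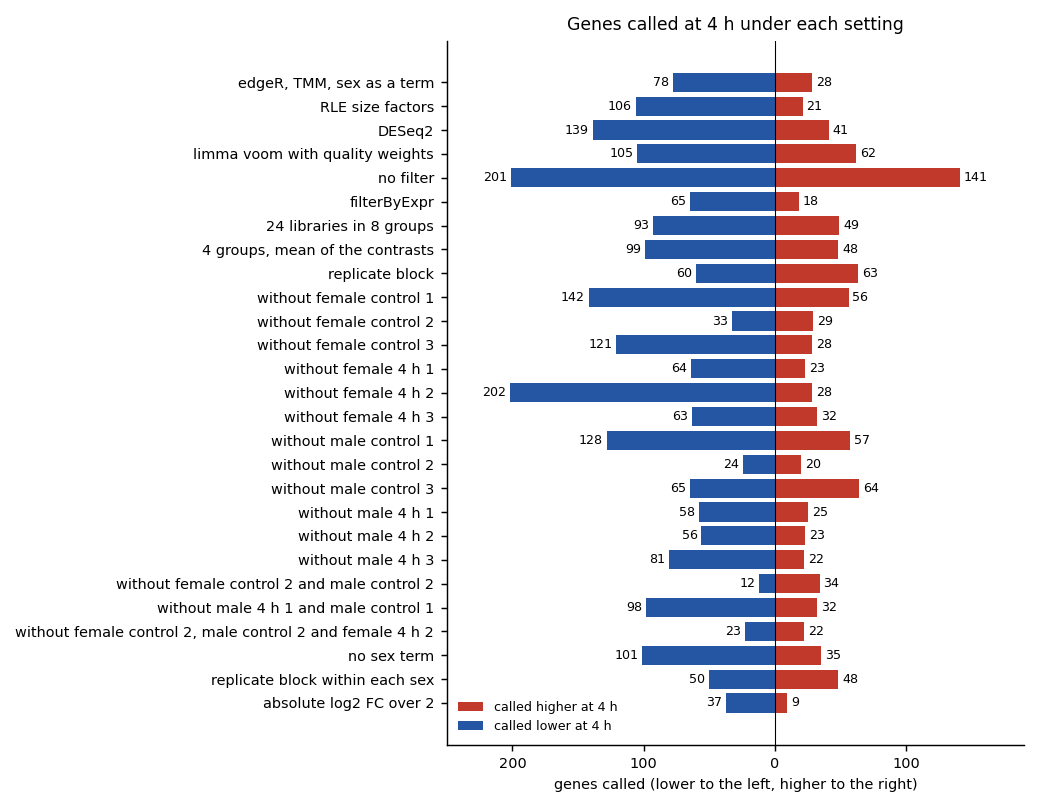
Number of genes called higher and lower at 4 h against control, both sexes pooled, under each setting of the analysis. With all 12 libraries 28 were higher and 78 lower, and without female control 2 and male control 2 the numbers were 34 and 12.

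Among the higher genes were 2 neuropeptide precursors. *Tk* encodes tachykinin, a neuropeptide of brain and gut that modulates olfactory and aggressive behaviour. It was counted at 22.8, 11.7 and 14.9 CPM in females and 5.48, 27.7 and 22.0 CPM in males at 4 h, against 4.17, 3.44 and 1.32 CPM in control females and 0, 4.56 and 11.6 CPM in control males. All 3 females at 4 h lay above all control females, whereas male 4 h 1, the shallowest injured library, lay below male control 3. *Tk* was higher by a log2 FC of 1.96 ± 0.67 (SE, edgeR), with 2.41 ± 1.00 in females and 1.56 ± 0.95 in males. It stayed called in each of the 25 alternatives that kept the fold threshold of a call, at 1.83 without the second controls. The second, *AstCC*, encodes allatostatin double C, a paralog of the peptide allatostatin C. It had 29 counts in 4 of the 6 libraries at 4 h (17.0 and 4.06 CPM in females 2 and 3, 6.30 and 4.99 CPM in males 2 and 3) and 0 counts in all 6 controls, at least 11.0-fold higher against a floor of 3 counts over the control group. Female 4 h 2 alone held 16 of those 29 counts, and the bound was 6.32-fold without it and 5.30-fold without the second controls. The bound covers counting error only. *AstCC* passed the filter through its libraries at 4 h alone and was tested in 9 of the 12 fits that left out 1 library. It had too few reads to be tested without female 4 h 2. Where tested, it stayed called in 19 of 20 alternatives, limma voom with quality weights being the exception (log2 FC 1.66), and these are no independent support.

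**Figure D3:**
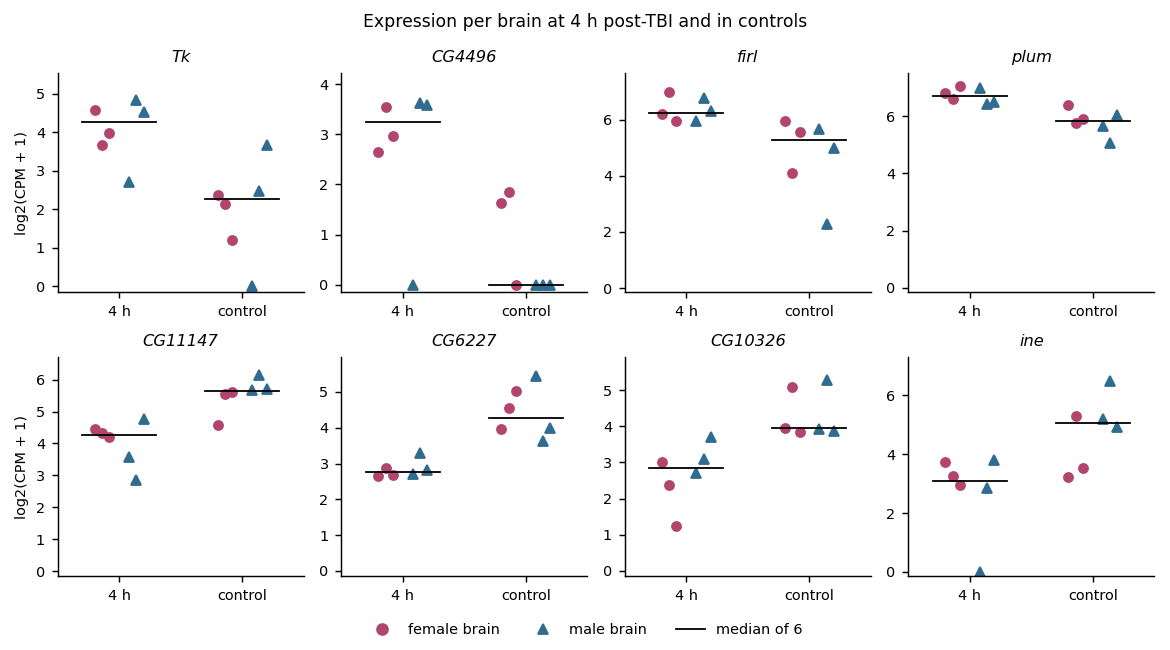
Level of 8 genes in each of the 12 libraries as log2(CPM + 1), 4 h left of control, females as circles and males as triangles, with the median of each condition as a line. *Tk*, *CG4496*, *firl* and *plum* were higher at 4 h, and *CG11147*, *CG6227*, *CG10326* and *ine* lower, and the 2 conditions overlap in all but *plum*, *CG6227* and *CG10326*.

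The other higher genes that held without the second controls were of mixed function. Some lost the call with another library left out: *CG6422* and *CG8273* were called in 9 of 12 such fits and *CG43679* in 11. *CG4496*, known by its annotation number only, was counted at 5.26, 10.6 and 6.76 CPM in females and 0, 11.3 and 11.0 CPM in males at 4 h, against 2.09, 2.58 and 0 CPM in control females and 0, 0 and 0 CPM in control males. It had 38 counts at 4 h and 4 in controls, none of them in a control male, and was at 0 in male 4 h 1 as well, so the groups overlap there. Its log2 FC was 3.24 ± 1.13, and 3.66 without the second controls. *Cpr50Cb*, a cuticular protein gene, had 44 counts at 4 h and 1 count in controls, a ratio of 49.9 with a 95% counting interval of 8.50 to 2015. All 6 brains had counts at 4 h, at 2.70 to 25.4 CPM at 4 h (median 8.75), against 0 to 7.09 CPM in controls (median 0), and the single control count lay in male control 1, where a read was worth 7.09 CPM. Of the 44 counts 24 lay in female 4 h 2, and the ratio was 29.2 without that library (interval 4.67 to 1210) and 24.1 without the second controls (4.11 to 975). *CG6422* encodes Ythdf, a reader of methylated adenosine in mRNA. It stood at 19.1 to 76.8 CPM at 4 h (median 39.1), against 3.97 to 35.5 CPM in controls (median 18.0), and within each sex all 3 brains at 4 h lay above all 3 controls (log2 FC 1.20 ± 0.46). *CG43679* (5.48 to 50.8 CPM at 4 h (median 15.3), against 0 to 7.95 CPM in controls (median 5.26), log2 FC 2.03 ± 0.77) and *CG8273* (21.2 to 59.2 CPM at 4 h (median 37.4), against 7.09 to 31.3 CPM in controls (median 15.7), log2 FC 1.12 ± 0.43) also rose in the pooled fit, with overlapping groups, and were at 1.74 and 1.00 without the second controls. In a later annotation than that of the counts, *Tk* overlaps *Ect3* and *CG6422* overlaps *CG31115* on the other strand, as 44 of the 106 called genes overlap some gene. Whether the count used strand is not given in the sources used here, so the reads of such neighbours cannot be told apart.

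For several other higher genes the call depended on 1 or 2 libraries. *firl* was counted at 71.8, 125 and 60.8 CPM in females and 60.3, 107 and 78.9 CPM in males at 4 h, against 60.5, 16.3 and 46.4 CPM in control females and 49.7, 3.80 and 30.7 CPM in control males. Within each sex all brains at 4 h lay above all controls, though by as little as 60.8 against 60.5 CPM in females, and the second control of each sex was its lowest. The log2 FC was 1.42 ± 0.48, and 0.91 and no longer called without the second controls. *tn* (*thin*), a TRIM-family gene needed to maintain muscle, and *tmod* (tropomodulin), which caps actin filaments, reached 178 and 209 CPM in female 4 h 2 and were at 1.52 and 0.761 CPM in male control 2. The log2 FC of *tn* was 1.54 ± 0.56 with all libraries, 1.21 without the second controls and 0.41, not called, without female 4 h 2 in addition. That of *tmod* was 1.93 ± 0.82, and it was called neither without the second controls (1.47) nor with the replicate block within each sex (1.86). Beside these, the muscle list as a whole had a median log2 FC of 0.26 with 0 of 21 tested genes called, beside 1.5% of all tested genes. Its summed level was lowest in male control 2, and the part of muscle RNA in the *tn* and *tmod* values was not tested. *SMC2*, a subunit of the condensin complex, had 54 counts at 4 h and 9 in controls (0 to 21.9 CPM at 4 h (median 15.4), against 0 to 7.09 CPM in controls (median 1.8), log2 FC 2.67 ± 0.98), and was at 2.08 and not called without the second controls. *Rx*, the retinal homeobox transcription factor, had 32 counts against 2, a ratio of 18.1 (95% counting interval 4.63 to 156), but was absent from female 4 h 1 and male 4 h 1. With the replicate number as a block within each sex its log2 FC was 3.33 and it was not called, nor was it without the second controls (2.53, ratio 8.78). *CG17754* rested on 141 CPM in female 4 h 2, beside 5.41 to 25.2 CPM in the other brains at 4 h (log2 FC 2.05 ± 0.80, 2.02 and not called without the second controls, and 0.63 without that library in addition).

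A further 3 genes were higher in every brain at 4 h than in any control but fell short of the thresholds of a call. In all, 6 of the 7088 tested genes (0.0847%) had the 6 libraries at 4 h wholly apart from the 6 controls. The 3 higher ones were *plum*, *emc* and *dlg1*. They were picked by this separation, and among 7088 genes some would be apart in this way with no effect of injury. How many was not computed, so neither their number nor their separation is taken as a sign of a response. *plum*, an immunoglobulin-superfamily receptor of neuronal remodelling, was counted at 112, 95.4 and 131 CPM in females and 126, 85.6 and 89.9 CPM in males at 4 h, against 83.4, 53.3 and 58.3 CPM in control females and 49.7, 32.7 and 64.5 CPM in control males. Its lowest brain at 4 h was thus just above its highest control (log2 FC 0.91 ± 0.29). *emc*, whose helix-loop-helix product restrains proneural factors, was at 109.7 to 158 CPM at 4 h (median 132), against 35.7 to 108 CPM in controls (median 98.7) (log2 FC 0.67 ± 0.30), and *dlg1*, a scaffold of synapses and septate junctions, at 143 to 196 CPM at 4 h (median 169), against 114 to 142 CPM in controls (median 133) (log2 FC 0.38 ± 0.22). In 21 genes (0.296%), 11 higher and 10 lower, the groups were apart within each sex in the same direction, and 8 of the 21 were called, namely *firl*, *CG6422* and *CG2662* higher, and *CG11147*, *CG6227*, *CG10326*, *Tpc1* and *wdn* lower. Of the 8, *CG6422*, *CG11147* and *CG6227* were also called without the second controls, and *CG2662* was at 1.61 and not called. Some of the 7088 genes would be apart within each sex with no effect of injury as well, and that number was not computed either.

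The lower genes least dependent on single controls were *CG6227* and *CG11147*, known by their numbers only. *CG6227* was counted at 5.26, 6.36 and 5.41 CPM in females and 5.48, 8.82 and 5.99 CPM in males at 4 h, against 14.6, 22.4 and 31.8 CPM in control females and 42.6, 11.4 and 14.8 CPM in control males. All 6 brains at 4 h lay below all 6 controls, with 27 counts against 92. The log2 FC was −1.77 ± 0.56, and −1.94 without the second controls. *CG11147* was at 21.0, 19.1 and 17.6 CPM in females and 11.0, 6.30 and 26.0 CPM in males at 4 h, against 22.9, 45.6 and 47.7 CPM in control females and 49.7, 69.2 and 50.8 CPM in control males. Only male 4 h 3 reached above the lowest control, female control 1 (log2 FC −1.45 ± 0.43, −1.02 ± 0.59 in females and −1.91 ± 0.62 in males). Both genes were called in all 25 alternatives that kept the fold threshold of 1, and neither had an absolute log2 FC above 2. *CG10326* was also wholly apart, at 1.35 to 12 CPM at 4 h (median 6.25), against 13.2 to 38.0 CPM in controls (median 14.4), with a log2 FC of −1.8 ± 0.60, but at −1.20 it was not called without the second controls. *wdn*, a zinc finger gene, was the remaining gene apart over all libraries (0 to 5.99 CPM at 4 h (median 2.66), against 6.26 to 18.3 CPM in controls (median 10.3), log2 FC −1.75 ± 0.78), at −1.40 without the second controls and −1.89 with the block within each sex, called in neither. *Tpc1*, a mitochondrial carrier of thiamine pyrophosphate, had 8 counts at 4 h and 55 in controls (0 to 5.99 CPM at 4 h (median 0.530), against 3.97 to 19.8 CPM in controls (median 8.28), log2 FC −2.45 ± 0.95). Beside it, *aralar1*, the aspartate-glutamate carrier (9.46 to 38.2 CPM at 4 h (median 13.7), against 0 to 89.7 CPM in controls (median 36.7)), and *vimar*, a regulator of the mitochondrial GTPase Miro (0 to 5.30 CPM at 4 h (median 3.17), against 0 to 16.7 CPM in controls (median 10.8)), were at −1.02 ± 0.58 and −1.70 ± 0.90 and not called. Several further lower genes had almost no reads at 4 h. *CR43480*, a non-coding gene, had 0 counts at 4 h and 42 in controls, at least 12.3-fold lower against a floor of 3 counts over the 4 h group, but 35 of the 42 lay in female control 2 (19) and male control 2 (16), and without them the bound was 4.25-fold. *Klc*, the light chain of the motor kinesin, had 1 count against 43 (ratio 0.0264, 95% counting interval 0.000653 to 0.155), and the ratio was 0.0211 without the second controls. *CG6834* had 3 against 78 (ratio 0.0436, interval 0.00880 to 0.132), 65 of them in female control 2 (23) and male control 2 (42), without which the ratio was 0.127 (0.0231 to 0.461). None of these 3 genes, nor *Tpc1*, had enough reads to be tested without the second controls.

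The antenna and olfactory list held the most lower calls of any list, and each of the 5 had its highest level in female control 2. Odorant-binding proteins carry odorants in the fluid around antennal neurons, and their genes are markers of antenna and not of brain. Of the 14 tested genes of the antenna list, 5 were called lower (*Os-C*, *Obp19d*, *Obp83b*, *a5* and *Obp28a*) and 12 had a negative log2 FC, beside 1.1% and 48.2% of all tested genes, and the medians were −2.07 pooled, −3.68 in females and −0.57 in males. *Obp19d* was counted at 63.1, 84.8 and 48.7 CPM in females and 87.7, 89.4 and 78.9 CPM in males at 4 h, against 48.0, 1865 and 68.9 CPM in control females and 70.9, 585 and 151 CPM in control males. Female control 2 stood far above the rest and male control 2 next, while the other controls spanned the range of the 4 h brains. The log2 FC was −2.53 ± 0.88 with all libraries, −0.15 without the second controls and −1.38 with the block within each sex, and the last 2 were not called. *a5* reached 836 CPM, *Obp28a* 678 CPM, *Obp83b* 244 CPM and *Os-C* 160.0 CPM in female control 2, and none of the first 3 was called without the second controls (log2 FC −0.44, −0.54 and −0.61) or under that block (−1.41, −1.33 and −1.76). *Os-C* had the lowest p of all genes (log2 FC −4.28 ± 1.19), overlaps the lower gene *Sfp84E* on the other strand, and had too few reads to be tested without the second controls. The summed antenna list in those 2 libraries was 8358 and 1854 CPM, against 562 to 1212 CPM in all brains at 4 h.

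Lower genes of hormone, peptide and small-molecule metabolism were high in male control 2. *jhamt*, which encodes the methyltransferase of the last step of juvenile hormone synthesis in the corpora allata, was counted at 3.50, 0 and 0 CPM in females and 5.48, 0 and 9.99 CPM in males at 4 h, against 6.26, 5.16 and 9.27 CPM in control females and 7.09, 122 and 7.40 CPM in control males. Male control 2 stood alone, and the log2 FC of −2.98 ± 0.95 was −1.58 and not called without the second controls. That library also held 6339 CPM of the 4 genes of the corpora list, of which *jhamt* is 1, and the part of this tissue in the value was not tested. *Dsk*, the precursor of drosulfakinin, a satiety peptide made by the insulin-producing cells, was at 26.3, 93.3 and 16.2 CPM in females and 27.4, 45.3 and 50.9 CPM in males at 4 h, against 29.2, 195 and 19.9 CPM in control females and 35.5, 603 and 145 CPM in control males. Its log2 FC was −1.74 ± 0.76, but −0.22 without the second controls. *ine*, a transporter of the neurotransmitter transporter family, was at 12.3, 8.48 and 6.76 CPM in females and 0, 6.30 and 13 CPM in males at 4 h, against 8.34, 38.7 and 10.6 CPM in control females and 35.5, 88.2 and 29.6 CPM in control males. The log2 FC of −1.91 ± 0.61 was −1.09 and not called without the second controls. In the glia list *ine* was the single call among 18 tested genes, beside 1.5% called of all tested genes. That list summed to 2068 to 2460 CPM at 4 h, against 2003 to 3242 CPM in controls, the highest in male control 2. Of 49 tested cytochrome P450 genes, whose products oxidize hormones, lipids and toxins, 4 were called lower (*Cyp6g2*, *Cyp9f2*, *Cyp311a1* and *Cyp4ac2*) and 35 had a negative log2 FC, beside 1.1% and 48.2% of all tested genes, with a median of −0.29. *Cyp6g2* stood at 11.7 to 40.9 CPM at 4 h (median 29.5), against 12.9 to 241 CPM in controls (median 55.3) (log2 FC −1.28 ± 0.53) and *Cyp9f2* at 21.4 to 102 CPM at 4 h (median 35.6), against 14.2 to 321 CPM in controls (median 70.1) (log2 FC −1.51 ± 0.62). Without the second controls they were at −0.93 and −0.11 and not called, and with the block within each sex *Cyp9f2* (−1.09), *Cyp311a1* (−1.68) and *Cyp4ac2* (−2.71) were not called either. *Cyp311a1* was at −1.52 and not called without the second controls, and *Cyp4ac2* had too few reads to be tested.

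Other lower genes with known roles followed the same libraries. *Sam-S*, the synthetase of the methyl donor S-adenosylmethionine, was at 15.8 to 40.9 CPM at 4 h (median 23.9), against 14.2 to 160.5 CPM in controls (median 52.5) (log2 FC −1.31 ± 0.46), *D2hgdh*, a mitochondrial hydroxyglutarate dehydrogenase, at 5.48 to 47.9 CPM at 4 h (median 38.0), against 35.5 to 162 CPM in controls (median 81.7) (log2 FC −1.28 ± 0.43), and *Est-6*, a secreted carboxylesterase, at 148 to 489 CPM at 4 h (median 278), against 149 to 1804 CPM in controls (median 463) (log2 FC −1.28 ± 0.50). Each was highest in male control 2, and without the second controls none of the 3 was called, at −0.57, −0.88 and −0.22. *Est-6* was not called with the block within each sex either (−0.92). *caix* was at 5.04 to 36.0 CPM at 4 h (median 15.1), against 16.9 to 206 CPM in controls (median 40.0) (log2 FC −2.10 ± 0.63), and at −0.69 without the second controls. *Trh*, the tryptophan hydroxylase that starts serotonin synthesis in neurons, had 4 counts at 4 h and 35 in controls (0 to 3.0 CPM at 4 h (median 0), against 0 to 16.0 CPM in controls (median 6.75), log2 FC −2.64 ± 1.25) and was −2.38 and not called with the block within each sex, with too few reads to be tested without the second controls. It was the single call among 25 tested genes of monoamine synthesis, transport and reception, beside 1.5% called of all tested genes. *mRpS26*, a protein of the mitochondrial ribosome, was the single call among 67 tested genes of that complex (8.76 to 30.2 CPM at 4 h (median 14.3), against 14.2 to 73.0 CPM in controls (median 34.7), log2 FC −1.15 ± 0.50, and −0.54 without the second controls), and *GstO3*, an omega-class glutathione S-transferase, the single call among 27 of its family, with a log2 FC of −2.70 ± 1.17 and, with the block within each sex, −2.73 and no call, again with too few reads without the second controls. With 1.5% called of all tested genes, a single call in lists of 25, 67 or 27 genes is no sign of a change in the list. *Ugt35b*, a UDP-glycosyltransferase, fell by 1.06 on the log2 scale in the pooled fit. It was at −0.73 with the block within each sex and −0.08 without the second controls, called in neither.

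Immune genes, the best-known targets of injury signalling, were called as often as tested genes at large, with 1 call among the 66 tested genes of 5 immune lists (1.52%, beside 1.5% of all tested genes). Of 12 tested antimicrobial peptide genes none was called, 6 had a positive log2 FC and the medians were −0.10 pooled, 0.91 in females and −0.94 in males. *Mtk*, the antifungal peptide metchnikowin, came closest. It was at 212, 237 and 227 CPM in females and 296, 418 and 309.6 CPM in males at 4 h, against 163, 68.8 and 90.1 CPM in control females and 128, 44.9 and 437 CPM in control males. All 3 females at 4 h lay above all control females, whereas male control 3 lay above every brain at 4 h (log2 FC 0.91 ± 0.40, unadjusted p = 0.0359 in the edgeR fit, below the fold threshold). The same control male was the highest library for *AttC* (attacin C) at 238 CPM, *CecA1* at 143 CPM and *CecA2* at 114 CPM, both cecropins, and for the untested *DptB* and *CecB*, at 113 and 33.7 CPM. In the brains at 4 h *AttC* ranged from 21.9 to 47.9 CPM and *CecA1* from 0.999 to 23.3 CPM. *Drs*, drosomycin, was at 438 to 552 CPM at 4 h (median 476), against 277 to 611 CPM in controls (median 390.0), with a log2 FC of 0.22 ± 0.22. Among 12 tested short immune-induced peptides, targets of Toll signalling, 11 had a positive log2 FC, with medians of 0.59 pooled, 0.72 in females and 0.37 in males, and *IM3* was called. *IM3* was at 1319.5, 5810 and 1126 CPM in females and 1015, 1384 and 1444 CPM in males at 4 h, against 940.5, 1036 and 1088 CPM in control females and 525, 458 and 1568 CPM in control males. Female 4 h 2 stood far above the others, and the log2 FC of 1.01 ± 0.41 was 0.84 without the second controls, 0.25 without female 4 h 2 in addition and 0.89 with the block within each sex, not called in any of the 3. The summed level of the list was 29750 CPM in that library and 10380 to 14400 CPM in the other brains at 4 h, against 4306 to 15070 CPM in controls. Of 18 tested Toll pathway genes, 16 Imd pathway genes and 8 Nimrod genes none was called, with median log2 FC of 0.32, 0.02 and 0.22, beside 0.02 over all tested genes.

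**Figure D4:**
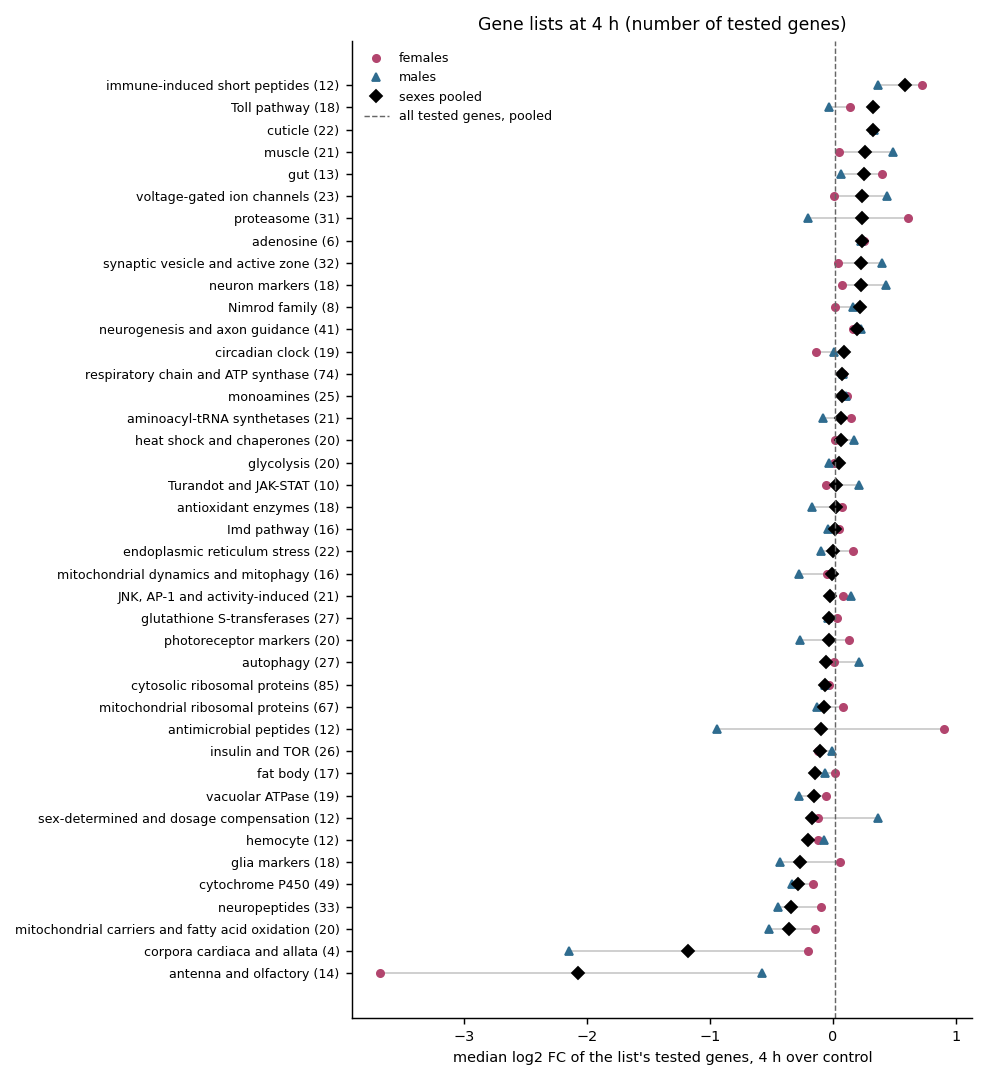
Median log2 FC (4 h over control) of the tested genes of each gene list with at least 4 tested genes, for the sexes pooled, females and males. Antimicrobial peptides lay at 0.91 in females and −0.94 in males, and antenna genes at −3.68 and −0.57, while most other lists lay near the median of all tested genes, 0.02 pooled.

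Lists of neuronal genes leaned to small positive values with the sexes pooled. Of the 41 neurogenesis and axon guidance genes tested, the log2 FC was positive in 33 (median 0.20), as it was in 24 of 32 genes of synaptic vesicles and active zones (0.23) and in 17 of 23 voltage-gated ion channel genes (0.24), beside 51.8% of all tested genes (median 0.02), and none of the 95 genes of these 3 lists was called, beside 1.5% of all tested genes. Neuron markers moved with them: 16 of 18 were positive (median 0.23), none called, and their summed level was 5398 to 7875 CPM at 4 h, against 3251 to 7901 CPM in controls, lowest in male control 2. In females and males apart, the medians were 0.17 and 0.23 for neurogenesis and axon guidance and 0.04 and 0.40 for the synaptic list. They were 0.006 and 0.44 for ion channels and 0.08 and 0.43 for neuron markers. Outside the neurogenesis list the lean thus lay mainly in males. The summed levels of the 3 lists were also lowest in male control 2 (3633, 3178 and 1910 CPM). The part of neuron content in these lists was not tested. Neuropeptide genes as a group went the other way, 24 of 33 being negative (median −0.34), with *Tk* and *AstCC* higher and *Dsk* lower as the 3 calls. Their summed level was 5078 to 8330 CPM at 4 h, against 5193 to 13900 CPM in controls, highest in male control 2. Of the genes of energy supply, 50 of 74 for the respiratory chain and ATP synthase were positive (median 0.07) and 15 of 20 for mitochondrial carriers and fatty acid oxidation negative (−0.35), none called. None was called either among the 20 tested heat shock and chaperone genes, 22 of endoplasmic reticulum stress, 21 of JNK and AP-1 signalling, 27 of autophagy, 31 of the proteasome or 85 of cytosolic ribosomal proteins, with medians between −0.07 and 0.24. The highest of these, that of the proteasome, joined 0.61 in females and −0.20 in males. Proteasome genes summed to 5031 CPM in female 4 h 2, against 1898 to 2486 CPM in the other brains at 4 h.

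The sexes were also fitted apart, in an interaction model. Of the 7088 tested genes, 80 were then called in females (38 higher, 42 lower) and 254 in males (105 higher, 149 lower). Called in both were 4 genes, 5% of the female and 1.57% of the male calls, 1 of them in the same direction. Lists this short among 7088 genes would share few members even if unrelated. That number was not computed, so the overlap is not read as a result about the sexes. Across the 7088 genes the female and male log2 FC had a Pearson r of 0.02 and a Spearman rho of 0.05, and 53.7% had the same sign. Genes are not independent replicates, and these values are descriptions. Of the female calls 50% had the same sign in males, and of the male calls 53.1% in females. The correlation moved with single brains: without female 4 h 2 it was 0.21 (62.2% of the same sign), and without both second controls −0.07 (47.6%). All 106 pooled calls had the same sign in both sexes, a direction that calling on the pooled value favours, and 26 were also called in females, 37 in males and 44 in neither.

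**Figure D5:**
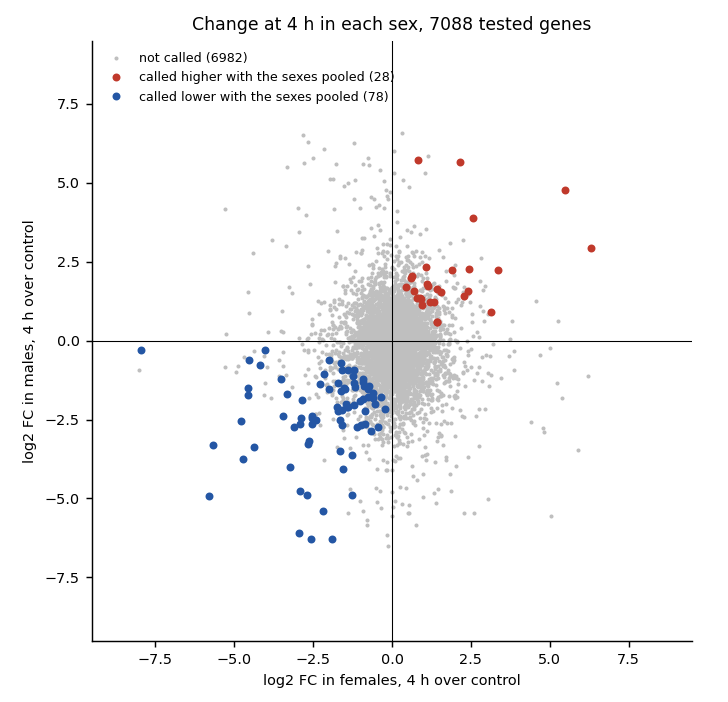
Log2 FC (4 h over control) of the 7088 tested genes in females (x axis) and males (y axis), with the 28 higher and 78 lower pooled calls coloured. The cloud has a Pearson r of 0.02, and the pooled calls lie in the quadrants where both sexes moved one way.

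The difference between the sexes was itself tested as the sex by injury term, and 164 genes (2.31%) passed the same thresholds, 76 with the male change above the female and 88 below, none at an adjusted p under 0.05 and 164 at an unadjusted p under 0.05. Of the 106 pooled calls 5 were among them: *Obp83b*, *Obp28a*, *Arp1*, *CG40486* and *CR43605*. *Arp1*, a subunit of the dynactin complex that links dynein to its cargo, was at 22.8, 38.2 and 18.9 CPM in females and 11.0, 15.1 and 19.0 CPM in males at 4 h, against 29.2, 48.2 and 15.9 CPM in control females and 35.5, 123 and 44.4 CPM in control males, a log2 FC of −0.23 ± 0.61 in females and −2.15 ± 0.65 in males. Pooled, it was at −1.15 ± 0.50, and at −0.54 and not called without the second controls. *CG40486* had 0 counts in all 3 females at 4 h, against 6.26, 97.2 and 15.9 CPM in control females, and was at 21.9, 3.78 and 4.99 CPM in males at 4 h, against 7.09, 21.3 and 0 CPM in control males. It was not called with the block within each sex (−2.29) and had too few reads to be tested without the second controls. *CR43605*, a non-coding gene, was at 21.9, 3.78 and 4.99 CPM in males at 4 h, against 0 counts in all control males, and overlapped between the female groups, at 21.0, 20.1 and 10.8 CPM in females at 4 h, against 20.9, 5.16 and 3.97 CPM in control females (pooled log2 FC 2.06 ± 0.97, and 1.42 and not called without the second controls). For the lead genes *Tk*, *CG11147* and *CG6227* the term gave an unadjusted p of 0.526, 0.308 and 0.696 in the edgeR fit, with a male minus female log2 FC of −0.86, −0.89 and 0.45, so no difference between the sexes was detectable there with 3 brains a group. For *AstCC*, at 0 counts in both control groups, the term could not be tested.

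Beside the 4 h values stand those at 1 and 2 h from a single fit of all 24 libraries. The 3 times share the same 6 controls, so a high or low control moves all of them, and the values are given without comparison. In order of time, the pooled log2 FC was 1.33, 0.46 and 1.99 for *Tk*, 4.16, 4.09 and 3.95 for *CG4496* and 3.71, 0.68 and 4.64 for *Cpr50Cb*. *AstCC* had no count in any of the 6 brains at 1 h and at most 1.75 CPM at 2 h. *plum* was at 0.87, 1.19 and 0.91 and *emc* at 0.69, 1.02 and 0.68, with brains from 46.3 to 135 CPM at 1 h and 103 to 151 CPM at 2 h for *plum*. Of the lower genes, *CG11147* was at −0.82, −1.26 and −1.47, *CG6227* at −1.35, −1.41 and −1.77 and *CG10326* at −0.74, −0.88 and −1.82. For *Obp19d* the values were −1.87, −2.67 and −2.51, and *jhamt* had no count in any brain at 2 h.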

How the data were processed

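The deposited values are counts, whole numbers of reads in each gene, not normalized. To make them, the authors demultiplexed the 50 bp QuantSeq reads (CASAVA 1.8.2), mapped them to the dm3 build (STAR 2.4) and summed them by gene. The annotation version and strand setting are not given in the sources used here. The deposited tables of the authors' own edgeR 3.22.3 comparisons hold fold changes, average levels and p-values for each injured group, and were not used. Reads outside genes stayed out of library sizes: between 13.9 and 32.2% of a library's reads had no unique place, between 6.06 and 8.71% lay in overlapping genes, and between 1.74 and 6.37% lay outside any feature. At the depth of 117416 to 1407485 reads in genes, rare transcripts were often at 0, and intervals and floors cover counting error only.

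Genes with at least 5 counts in at least 3 of the 12 libraries (7088 of 16995) were tested by edgeR 4.0.16 in R 4.3.3 with TMM factors, sex and condition as terms and the robust quasi-likelihood F-test. P-values were adjusted by Benjamini-Hochberg over all tested genes. The SE is the absolute log2 FC divided by the square root of F. A gene was called at an unadjusted p under 0.05 with an absolute log2 FC above 1, the rule of the study's figure legends, while its methods state an adjusted p. A model with the sex by injury interaction gave the values of each sex and their difference. The scripts were tested on simulated data. P-values measure the spread between single brains.

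Named were *tau*, the 12 higher and 12 lower calls of lowest p with the same sign in both sexes, the 4 genes of lowest p for the sex by injury term in each direction, the genes that the study's text names, and in each of 43 lists the called members or the 2 of lowest p; the text gives a selection. Other genes (*plum*, *emc*, *dlg1*, *CG2662*, *tmod*, *wdn*, *Tpc1*, *Sam-S*, *D2hgdh*, *Est-6*, the 5 pooled calls with a sex difference and those named only for an alternative) were singled out after their values were seen. The members and lists were chosen with earlier results of these data known. Symbols matched a later annotation in 16920 cases (99.56%), which served for names and overlaps only.

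The replicate numbers of the labels were checked for pairing across 3270 genes. Within each sex the deviations of all 6 same-numbered pairs of 4 h and control correlated at over 0.1 (0.124 to 0.62), and over all 18 same-numbered pairs 15 did (−0.436 to 0.677). The highest value, 0.677, was between female control 1 and male control 1. The check thus does not establish a pairing within a sex, and the blocked fits are given as alternatives only. Alternatives were RLE size factors, DESeq2 1.42.0, limma 3.58.1 voom with quality weights, no filter, filterByExpr, a fit of all 24 libraries, 4 groups, the replicate block, an absolute log2 FC above 2 and left-out libraries. The block within each sex, the fit without a sex term, the one that also leaves out female 4 h 2 and the ratios with libraries left out were added after seeing the data.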

Additional observations from a re-analysis of the deposited data

Results flagged for a closer look

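Among 122 groups of 6 libraries (61 named genes, 4 h and control each), 15 had a library far from the other 5 past Dixon's 95% critical value, where chance flags about 1 in 20 groups of normal values. In 3 of the 15 (*Cpr50Cb*, *Klc* and *CG32732*) the other 5 libraries were at 0, so that a single read sufficed and the rate does not apply. Female 4 h 2 lay high for *IM3* (5810 CPM) and *TwdlT* (13.8 CPM) and low for *tau* (53.0 CPM). Male 4 h 1, the shallowest injured library, was at 0 for *CG4496* and *ine* and high for *Cyp4ac2* (5.48 CPM). Male 4 h 2 lay high for *CG6227* (8.82 CPM) and *CG32732* (1.26 CPM), female 4 h 3 high for *Klc* (1.35 CPM) and male 4 h 3 low for *CecA1* (0.999 CPM). Among controls, male control 2 lay high for *jhamt* (122 CPM) and at 0 for *CG15213*, male control 3 high for *CecA2* (114 CPM), and male control 1 high for *Cpr50Cb* (7.09 CPM, 1 read) and at 0 for *vimar*.

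The sex by injury term passed the thresholds of a call in 15 of 119 genes looked at, beside 2.31% of all tested genes, none at an adjusted p under 0.05 in the edgeR fit. Of the 15, 8 were named for the p of this same term, so that their passing was given by the choice: *CG3294*, *CR45833*, *Cyp6v1*, *CG12950*, *CG5697*, *TwdlT*, *Socs44A* and *CG31038*. In *CG3294*, *CR45833*, *Cyp6v1*, *CG12950*, *TyrRS-m* and *NimB3* the male change lay above the female one by 6.38, 9.34, 8.20, 3.90, 3.95 and 3.11 on the log2 scale (male minus female). In *Obp83b* and *Obp28a* it did so by 3.89 and 3.72, where female control 2 held the highest levels. In *CG5697*, *TwdlT*, *Socs44A*, *CG31038*, *CecA2*, *mRpL43* and *TotA* the male minus female difference was −9.37, −10.6, −7.55, −2.94, −3.99, −5.01 and −2.06. *CR45833*, *Cyp6v1*, *CG5697*, *TwdlT* and *Socs44A* each had a group of 3 libraries at 0 counts, so that the size of those differences depends on the prior count of the fit.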

How the results depend on the processing

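The 106 calls (28 higher, 78 lower) became 180 (41 and 139) with DESeq2, 167 (62 and 105) with limma voom, 342 (141 and 201) with no filter, 46 (34 and 12) without female control 2 and male control 2, 45 (22 and 23) without female 4 h 2 in addition, and 46 (9 and 37) at an absolute log2 FC above 2. Leaving out 1 library gave 44 (without male control 2) to 230 calls (without female 4 h 2), female control 2 giving 62 in this way, female control 1 giving 198 and male control 1 giving 185. RLE size factors gave 127 (21 and 106), filterByExpr 83 and the fit of 24 libraries 142. Of the 164 sex by injury calls, voom gave 278, no filter 377 and filterByExpr 101, and leaving out 1 library 112 to 319. No setting gave an adjusted p under 0.05. Shared with the 106 were 95 calls under DESeq2, 38 under voom and 14 without the second controls.

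With the replicate block there were 123 calls (63 and 60) and within each sex 98 (48 and 50), and 234 and 183 for the sex by injury term. Of the 106 calls 61 were kept with the block within each sex. Beyond the genes whose blocked values are given above, that block ended further calls, among them *Sfp84E* (−2.51).

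The log2 FC of *tau* changed sign, at −0.010 with RLE size factors, −0.011 with DESeq2, −0.022 without the second controls and −0.080 to 0.26 with 1 library left out. Counted over named genes and settings together, 738 values kept direction and side of the threshold, 181 kept direction but lost the call and 6 changed sign, all of *tau*. Of the list medians 1040 stayed within 1 SD over the 4 h libraries and 35 moved further. In libraries as shallow as male control 1, levels under 7.09 CPM are below 1 read. Causes of these changes were not tested.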

Other observations

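Without female control 2 and male control 2, 32 genes were called that were not among the 106, and the following were singled out after their values were seen. *Atg4a*, a protease of autophagosome formation, was higher at 4 h by a log2 FC of 1.45 ± 0.46 (SE, edgeR), *dpr1*, an immunoglobulin-domain gene of synaptic recognition, by 1.41 ± 0.52, *SPR*, the sex peptide receptor, by 1.44 ± 0.61, *Capr*, an RNA-binding protein gene, by 1.45 ± 0.58, and *mRpS14*, of the mitochondrial ribosome, by 1.11 ± 0.42. *DIP-theta*, from the family that binds Dpr proteins, was lower by a log2 FC of −2.74 ± 1.10, *GstO1* by −1.25 ± 0.58, *kek6* by −1.61 ± 0.68 and *tobi*, a glucosidase gene under insulin and adipokinetic hormone control, by −1.96 ± 0.88. None reached an adjusted p under 0.05 in that edgeR fit.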
